A study of Mus musculus with 7 samples.

Results

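Chromatin accessibility was described at 9 chemokine genes that intestinal epithelium can use to draw in leukocytes: Cxcl9, Cxcl10, Cxcl1, Cxcl2, Cxcl5, Cxcl16, Ccl20, Ccl25 and Ccl28. The genes were chosen by name from what they encode, with earlier results of these data known, as 9 of 21631 protein-coding mouse genes. A peak belonged to one of them if its summit lay in the gene body, or if the gene was the nearest protein-coding gene within 50 kb. This gave 281 of 531679 peaks, which merged across libraries into 46 of 103809 regions at 8 of the 9 genes. The rule gave Cxcl10 no region, because its locus lies inside the body of Art3, which took every summit there. A further 9 regions whose nearest gene end is a Cxcl10 end were therefore added after the data had been seen, and they are described apart from the 46.

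The study asked how the chromatin of intestinal stem cells differs in graft-versus-host disease. Omni-ATAC-seq, in which a transposase cuts open chromatin and the cut fragments are sequenced, was done on Lgr5+ stem cells, dividing crypt-base cells that renew the lining, sorted by FACS from the intestine of B6-GFP-Lgr5 recipients. All recipients were female mice of 8 to 12 weeks that had been lethally irradiated and given bone marrow, and cells were taken 7 days later. The Syn group (3 libraries) had a syngeneic transplant, and the Allo group (4 libraries) had BALB/c marrow, so that irradiation and transplantation are common to both groups. For a library, 3 to 4 mice were pooled to yield 50000 cells, with separate mice for each library, and the sort keeps only cells with the Lgr5 reporter, so chemokine loci in other crypt or villus cells are outside the measurement. The deposited files are 1 list of peaks per library, with no read counts, and an accessible region does not show that the gene was transcribed.

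Chemokines are small secreted proteins that guide leukocytes through G-protein-coupled receptors. The epithelium makes some of them all the time, among them Ccl25 and Ccl28, which bring lymphocytes with gut-homing receptors to the mucosa. Others are induced by interferon-gamma (Cxcl9, Cxcl10) or by NF-kappaB signalling after injury and bacterial products (Cxcl1, Cxcl2, Cxcl5, Ccl20). In graft-versus-host disease of the gut, donor T cells enter the crypts and attack the epithelium, stem cells included.

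The promoters of the inducible genes are shown because they carry the sequences through which these signals are known to act. Each window runs 5′ to 3′ along the gene from 250 bases before to 50 bases after the transcription start, from RefSeq on GRCm38.p6. A window was given for 7 of the 9 genes, with 8 windows in all because Ccl25 has a pair of starts. Capitals mark every match to 6 motifs searched on both strands, namely the ISRE core GAAANNGAA, the GAS element TTCNNNGAA, the kappaB consensus, the AP-1 site TGANTCA, the CDX core TTTATNG and the TCF/LEF core CTTTGAT. Positions are chr5:92328030-92328329 on the minus strand for Cxcl9, chr5:92348840-92349139 on the minus strand for Cxcl10, chr5:90890995-90891294 on the plus strand for Cxcl1, chr5:90903649-90903948 on the plus strand for Cxcl2 and chr1:83116516-83116815 on the plus strand for Ccl20.
Cxcl9: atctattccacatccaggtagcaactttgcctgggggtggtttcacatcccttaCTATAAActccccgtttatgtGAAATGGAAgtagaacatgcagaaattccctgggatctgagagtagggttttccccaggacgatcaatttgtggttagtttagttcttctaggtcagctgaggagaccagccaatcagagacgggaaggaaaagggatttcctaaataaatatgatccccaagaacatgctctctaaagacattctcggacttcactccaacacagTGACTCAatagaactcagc
Cxcl10: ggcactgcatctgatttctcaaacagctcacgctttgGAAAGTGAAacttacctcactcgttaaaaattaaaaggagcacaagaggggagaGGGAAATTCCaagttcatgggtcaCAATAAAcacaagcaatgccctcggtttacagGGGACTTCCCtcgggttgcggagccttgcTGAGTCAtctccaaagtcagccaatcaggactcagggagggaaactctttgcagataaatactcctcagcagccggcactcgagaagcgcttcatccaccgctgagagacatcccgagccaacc
Cxcl1: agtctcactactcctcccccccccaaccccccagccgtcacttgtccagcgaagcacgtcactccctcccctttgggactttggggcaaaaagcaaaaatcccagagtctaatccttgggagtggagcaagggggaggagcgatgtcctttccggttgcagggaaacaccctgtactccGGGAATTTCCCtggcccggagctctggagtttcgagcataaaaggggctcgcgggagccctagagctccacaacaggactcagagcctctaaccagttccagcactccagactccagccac
Cxcl2: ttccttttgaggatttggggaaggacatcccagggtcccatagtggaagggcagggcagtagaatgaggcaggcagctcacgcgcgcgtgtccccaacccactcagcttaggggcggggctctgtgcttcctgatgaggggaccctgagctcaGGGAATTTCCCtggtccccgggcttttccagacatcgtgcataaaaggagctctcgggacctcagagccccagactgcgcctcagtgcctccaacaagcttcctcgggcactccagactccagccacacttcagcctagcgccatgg
Ccl20: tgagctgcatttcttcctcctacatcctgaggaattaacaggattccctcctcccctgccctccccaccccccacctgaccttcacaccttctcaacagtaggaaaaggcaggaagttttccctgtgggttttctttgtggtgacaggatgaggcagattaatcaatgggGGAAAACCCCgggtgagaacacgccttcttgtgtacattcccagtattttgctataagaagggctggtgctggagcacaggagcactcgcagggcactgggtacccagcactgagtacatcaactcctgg

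The Cxcl10 window held an ISRE core starting 213 bases before the start, kappaB matches starting 159 and 103 bases before it, and an AP-1 site 74 bases before it. Cxcl9 held an ISRE core starting 175 bases before the start and an AP-1 site just after it. Cxcl1 and Cxcl2, neighbouring genes on chromosome 5, held the same kappaB word GGGAATTTCC, beginning 71 and 97 bases before the start, which also matches on the other strand shifted by 1 base. Ccl20 held GGAAAACCCC, a kappaB match on the other strand, beginning 80 bases before the start. Cxcl9 and Cxcl10 also held a CDX core each. None of the 8 windows held a GAS or TCF/LEF match, which says only that these letters are not in these windows. Of all 32851 promoter windows in the table, 8.56% held the ISRE core, 8.30% the GAS element, 4.51% the kappaB consensus, 7.81% the AP-1 site, 10.9% the CDX core and 3.73% the TCF/LEF core. A match describes the letters and does not show a bound factor.

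The lists held 71925, 73668 and 76438 peaks in Syn 1 to 3 and 62977, 76091, 88861 and 81719 in Allo 1 to 4. The estimated background pileup, the lowest number of fragments expected at a peak, was 4.97 ± 0.347 in Syn (SD, n = 3) and 3.81 ± 0.754 in Allo (SD, n = 4), and every Allo library was below every Syn library (exact permutation test, two-sided, p = 0.0857). It was lowest in Allo 3 (3.28) and Allo 4 (3.05), whose lists are named by another scheme than the other 5. The file names of these 2 lists carry no group word, and their place in Allo rests on the sample labels (title, description and recipient), which the peak lists cannot check. Peaks averaged 628 ± 9.17 bp in Syn and 592 ± 17.3 bp in Allo (exact permutation test, two-sided, p = 0.0571). These features move with the groups, and their part in the results was not tested. Of the defining markers, 5 of 6 stem cell genes and 6 to 7 of 7 epithelial genes had a peak at a gene end in every library, while 0 of 10 leukocyte genes and 0 of 7 endothelial and stromal genes had one in any library. Regions elsewhere at the 10 leukocyte genes numbered 15 to 18 per library in Syn and 12 to 21 in Allo, and Cd3d, Cd3g and Cd79a had none.

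The chemokine loci were open in both groups. Of the 46 regions, 29 were present in all 7 libraries, 17 were present in some libraries of the study, 0 were present in every Allo and no Syn library, and 0 in every Syn and no Allo library. Across all merged regions, 1.14% were Allo-only and 1.01% Syn-only in that sense, so a count of 0 among 46 is close to the background. Of the 9 added Cxcl10 regions, 1 was Syn-only. Syn 1 to 3 held 36, 38 and 37 of the 46 regions, and Allo 1 to 4 held 32, 39, 40 and 39. Allo 1, which has the shortest list, was the lowest of the 7, and the other 3 Allo libraries were above all Syn libraries. The 17 varying regions were mostly weak, at 0.398 to 55.9 on the list percentile, the share of a library's own peaks that rank below a given peak by the authors' −log10 q. List percentiles describe position in a list, and lists of unequal length do not show a change.

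**Figure D1:**
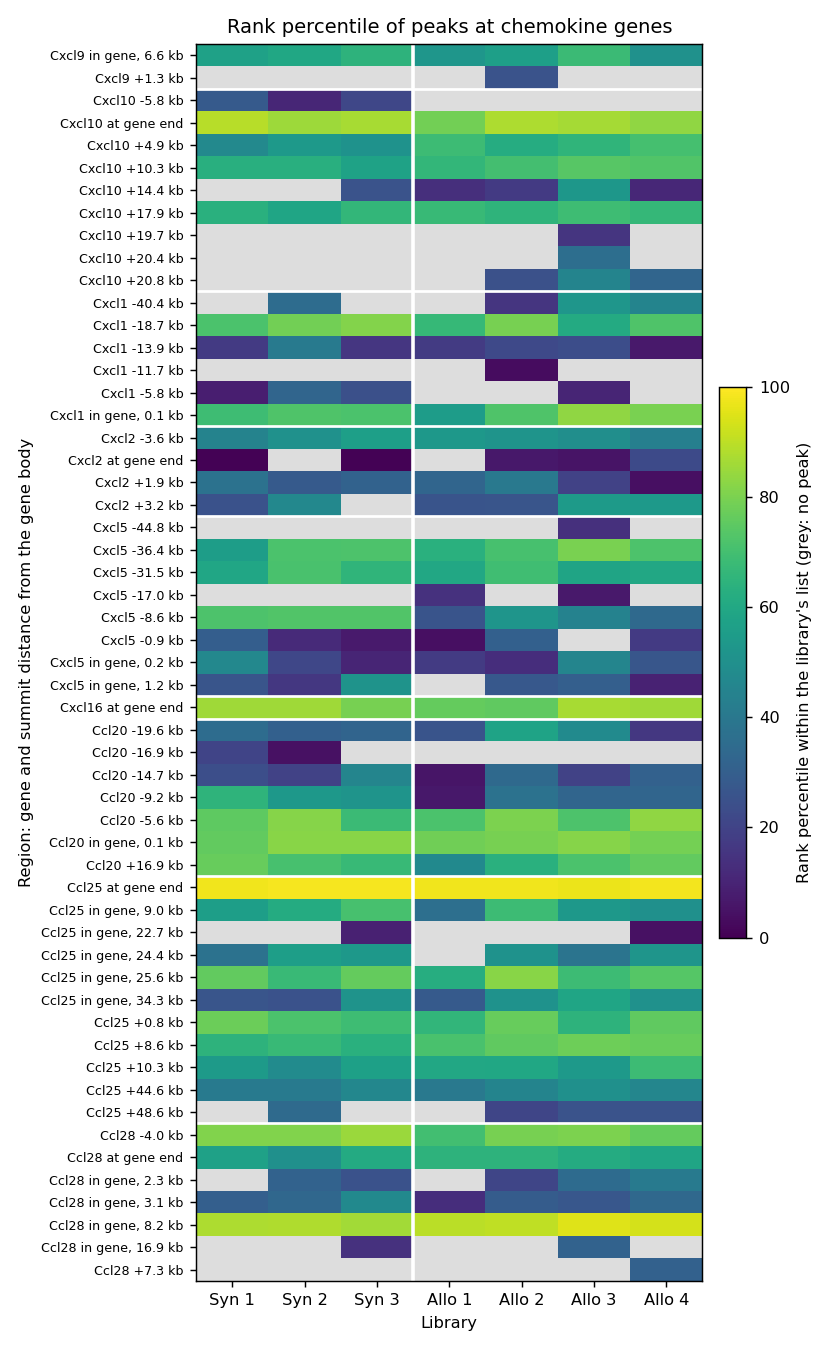
List percentile (colour, 0 to 100) of each chemokine region (vertical axis, with the summit's distance from the gene body in kb by genome coordinate, or into the gene) in each library (horizontal axis), with grey where a library had no peak, and with the 9 added Cxcl10 regions included. The first start of Ccl25 is near the top of every list, and no region of the 46 is filled in every library of 1 group and grey in the whole of the other.

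To compare strength between groups, the 50324 regions held by all 7 libraries (48.5% of the merged regions) were ranked within each library by −log10 q, which gives the shared percentile from 0 to 100. Of the 29 chemokine regions among them, 2 were lower in Allo and 0 were higher by limma with Benjamini-Hochberg adjustment over all shared regions at 0.05. The background was 1.57% of all shared regions called lower and 1.33% called higher, against 6.90% of the chemokine regions called lower. Every Allo library was below every Syn library at 4 of the 29, against a background of 8.86%, and every Allo library was above every Syn library at 2 of the 29, against 8.41%. The mean was lower in Allo at 19 regions and higher at 10, with a median difference of -2.93 percentage points, against 0.153 over all shared regions, of which 48.8% were below 0. Both called regions lie in the flanks of a gene, at Cxcl5 and at Ccl20, and neither is at a promoter.

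**Figure D2:**
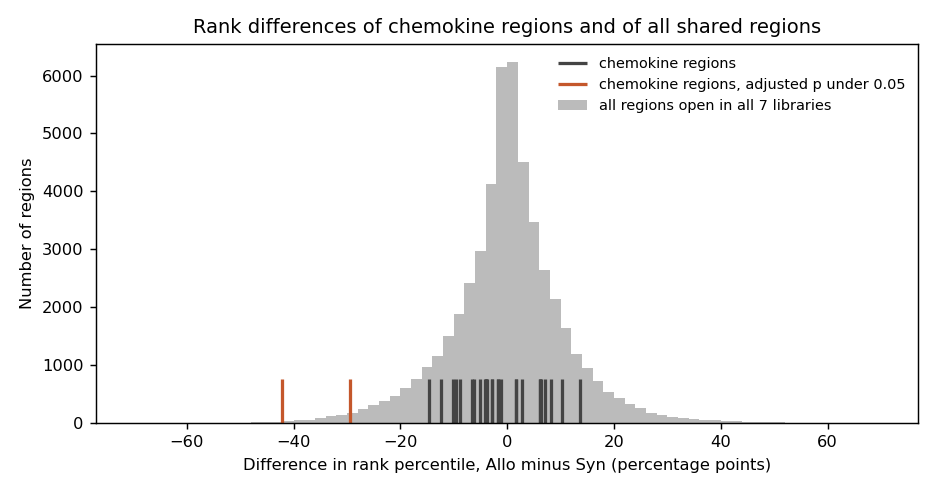
Number of regions (vertical axis) by difference in shared percentile, Allo minus Syn, in percentage points (horizontal axis), for all 50324 shared regions (grey), with the 29 chemokine regions as vertical ticks. The called Cxcl5 and Ccl20 regions (orange) lie at -42.1 and -29.4, and the other 27 ticks lie between -14.6 and 13.7.

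Cxcl5 encodes a neutrophil attractant that acts through CXCR2 and is made by epithelial cells. The gene lies at chr5:90759298-90761625 (mm10), and 8 regions were assigned to it. The called region at chr5:90750399-90751000 is intergenic, with its summit 8618 bp from the gene on the lower-coordinate side. Its shared percentile was 60.0, 60.6 and 58.8 in Syn 1 to 3 and 15.6, 30.4, 15.0 and 9.96 in Allo 1 to 4. The Syn libraries lay close together, and all 4 Allo libraries were far below them. The means were 59.8 ± 0.917 (SD, n = 3) and 17.8 ± 8.81 (SD, n = 4), a difference of -42.1 with a standard error of 7.18 and an adjusted p of 0.0112 by limma with Benjamini-Hochberg adjustment. The exact permutation test over samples, two-sided and unadjusted, gave p = 0.0286, the smallest that 35 relabellings allow. The peaks measured 602, 445 and 476 bp in Syn and 288, 429, 270 and 304 bp in Allo, and all 7 summits lay within 88 bp. The call was lost without Syn 1, Syn 2 or Syn 3 (adjusted p = 0.0604, 0.0512 and 0.0609 by limma) and without Allo 3 and Allo 4 together (-36.8, adjusted p = 0.0509 by limma). Leaving out libraries could not change the direction, because the groups did not overlap. The call was also lost when regions were ranked by fold, with the same direction (-48.8, adjusted p = 0.0512 by limma).

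The region at the Cxcl5 end with the lower coordinate, chr5:90759018-90760218, was weak and variable. Its shared percentile was 26.9, 5.44 and 1.42 in Syn and 9.21, 2.03, 16.1 and 5.92 in Allo, so the groups overlapped. The difference was -2.93 with a standard error of 5.99 (limma with Benjamini-Hochberg adjustment, adjusted p = 0.837), and its sign changed with the scale of the ranks. Regions 36434 and 31461 bp away on the same side ranked higher, between 55.7 and 79.9 on the list percentile, and were not called. Of the remaining regions, 1 within the gene and 1 close to it were missing only from Allo 1 and only from Allo 3, 1 was held only by Allo 1 and Allo 3, and 1 only by Allo 3. Counts of Cxcl5 regions were 6 throughout Syn against 6, 6, 7 and 6 for Allo (exact permutation test, two-sided, p = 1).

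Ccl20 encodes the ligand of CCR6 and recruits dendritic cells and lymphocytes, above all in the epithelium over lymphoid follicles. The gene lies at chr1:83116766-83119167 on the plus strand with 7 regions, 6 of which were in all libraries. The called region at chr1:83107305-83107887 had its summit 9160 bp upstream of the start. Its shared percentile was 50.6, 33.5 and 29.3 in Syn and 2.56, 15.0, 7.33 and 8.91 in Allo. The Syn libraries spread more than at Cxcl5, and the highest Allo library stayed below the lowest Syn library. The means were 37.8 ± 11.3 (SD, n = 3) and 8.45 ± 5.14 (SD, n = 4), a difference of -29.4 with a standard error of 6.49 and an adjusted p of 0.0306 by limma with Benjamini-Hochberg adjustment. The exact permutation test, two-sided and unadjusted, gave p = 0.0286. Peaks measured 484, 556 and 583 bp in Syn and 331, 366, 348 and 398 bp in Allo, with summits within 25 bp. This call rested on most of the libraries: without Syn 1, 2 or 3 the adjusted p by limma was 0.12, 0.0771 and 0.0743, without Allo 1, 3 or 4 it was 0.0821, 0.0649 and 0.0712, and without Allo 3 and Allo 4 together it was 0.106. The difference was then between -33.6 and -23.0, and when regions were ranked by fold it was -16.5 (adjusted p = 0.104 by limma).

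The Ccl20 start itself gave no such difference. The region at chr1:83116473-83117762 covered the whole promoter window in all 7 libraries, kappaB match included, with a shared percentile of 66.0, 73.8 and 72.8 in Syn and 73.0, 69.1, 68.2 and 66.1 in Allo. The groups overlapped, and the difference was -1.77 with a standard error of 3.93 (limma with Benjamini-Hochberg adjustment, adjusted p = 0.852). A region 5561 bp upstream of the start, between the start and the called region, ranked 64.5, 73.4 and 51.8 in Syn and 64.9, 70.2, 51.4 and 73.3 in Allo, also with overlap. A weak region 16859 bp upstream was held by Syn 1 and Syn 2 at list percentiles of 20.6 and 4.59 and by none of the other 5 libraries. Counts of Ccl20 regions were 7, 7 and 6 for Syn against 6 throughout Allo (exact permutation test, two-sided, p = 0.143).

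**Figure D3:**
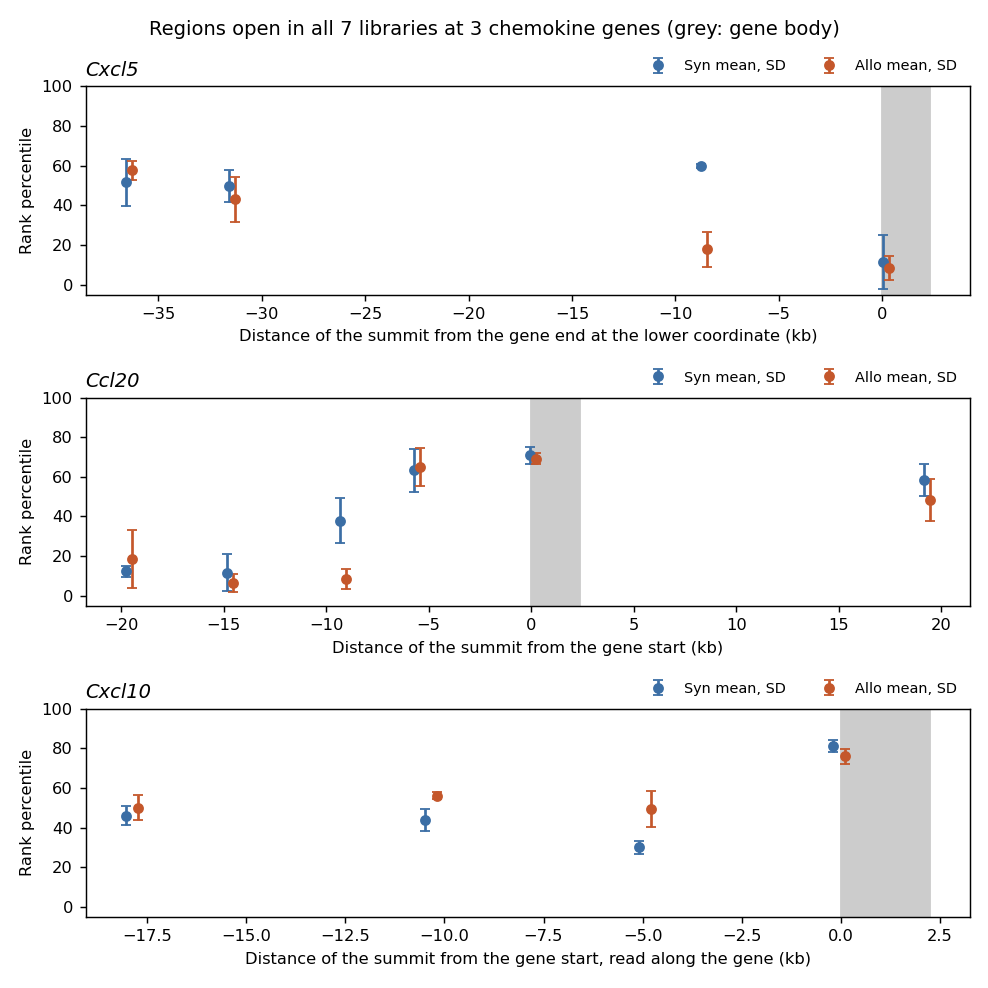
Mean shared percentile (vertical axis, 0 to 100, bars SD) in Syn (blue, n = 3) and Allo (orange, n = 4) against the distance of the summit from the gene in kb (horizontal axis) at Cxcl5, Ccl20 and Cxcl10, for regions in all 7 libraries, with the gene body in grey. The bars part at the Cxcl5 region 8618 bp from the gene and at the Ccl20 region 9160 bp upstream, and at the Cxcl10 regions 4947 and 10329 bp upstream of the start, where Allo is the higher group and the test was not passed. They overlap at the region of the Cxcl5 end and the Ccl20 start, and the libraries overlap at the Cxcl10 start.

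Cxcl9 and Cxcl10 encode ligands of CXCR3, the receptor by which activated T cells follow interferon-gamma responses. Cxcl9 (chr5:92321331-92328079, minus strand) had 2 regions. The region at its start, chr5:92327146-92328451, ranked 40.3, 41.5 and 46.8 in Syn and 41.9, 35.7, 44.8 and 24.3 in Allo on the shared percentile. Syn values fell inside the Allo range apart from the highest, and the difference was -6.21 with a standard error of 7.32 (limma with Benjamini-Hochberg adjustment, adjusted p = 0.693). Its peaks covered 76.3% to 100% of the promoter window. The other Cxcl9 region, 1272 bp upstream, was held by Allo 2 alone at a list percentile of 25.4.

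Cxcl10 (chr5:92346638-92348889, minus strand) was open at its start in every library, although the assignment by gene body credits the region to Art3. The region at chr5:92348369-92349935 covered the whole promoter window in all 7 libraries, with the ISRE, kappaB and AP-1 matches, and the summit lay 39 bp before the start. It ranked 84.5, 78.7 and 80.1 in Syn and 73.5, 81.1, 76.2 and 73.1 in Allo on the shared percentile, with overlap at Allo 2. The difference was -5.12 with a standard error of 2.92 (limma with Benjamini-Hochberg adjustment, adjusted p = 0.352).

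The 9 added regions included 4 shared ones, the start region and 3 farther upstream. Of these 3, 2 ranked higher in every Allo library than in any Syn library, without passing the test. Over all shared regions, every Allo library was above every Syn library at 8.41%. At chr5:92352836-92354010, 4947 bp from the start, the shared percentile was 27.4, 33.9 and 28.6 in Syn and 60.9, 43.3, 41.1 and 52.3 in Allo. The difference was 19.4 with a standard error of 7.31 (limma with Benjamini-Hochberg adjustment, adjusted p = 0.154). The exact permutation test, two-sided and unadjusted, gave its smallest possible p of 0.0286, for a region named after its values were seen. At chr5:92358879-92359486, 10329 bp from the start, Syn ranked 47.7, 46.3 and 37.4 and Allo 58.3, 55.5, 54.5 and 56.1, a difference of 12.3 with a standard error of 6.27 (adjusted p = 0.295 by limma), which became -2.16 when regions were ranked by fold. The groups overlapped at chr5:92366252-92367149, 17885 bp from the start, at 48.5, 40.6 and 49.0 in Syn and 59.3, 47.9, 46.6 and 46.3 in Allo (difference 4.01, standard error 6.73, adjusted p = 0.797 by limma). In the other direction along the gene, chr5:92340698-92341050, 5808 bp beyond the gene, was held by all 3 Syn libraries at list percentiles of 28.4, 10.9 and 21.1 and by no Allo library. It was the only Syn-only region of the 9 added ones, against the background of 1.01%. Farther upstream, a region 20839 bp from the start was held by Allo 2, 3 and 4 at list percentiles of 24.9, 45.0 and 32.6 and by no other library. By nearest gene end, counts of Cxcl10 regions were 5, 5 and 6 for Syn against 5, 6, 8 and 6 for Allo (exact permutation test, two-sided, p = 0.371). All of these regions lie within or next to Art3, and whether they act on Cxcl10, Art3 or another gene was not tested.

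Cxcl1 and Cxcl2 encode neutrophil attractants for CXCR2 that are induced early in injury. The region at the Cxcl1 start, chr5:90890619-90891702, covered the whole promoter window with its kappaB word in all 7 libraries. It ranked 56.1, 59.8 and 57.3 in Syn and 44.9, 58.7, 70.8 and 67.7 in Allo on the shared percentile. The Allo libraries spread on both sides of the narrow Syn range, and the difference was 2.78 with a standard error of 6.49 (limma with Benjamini-Hochberg adjustment, adjusted p = 0.860). A region 18700 bp upstream of the Cxcl1 start had a higher mean than the start in Syn (66.9 against 57.7) and a lower one in Allo (54.6 against 60.5). It ranked 59.5, 69.1 and 72.1 in Syn and 59.2, 69.2, 34.4 and 55.8 in Allo, with overlap. A region 5750 bp upstream was held by all 3 Syn libraries, at list percentiles of 8.35, 32.8 and 24.3, and by Allo 3 at 10.3.

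The Cxcl2 start was the weakest of the gene starts. The region at chr5:90903604-90904011 was at list percentiles of 0.398 in Syn 1, 0.525 in Syn 3, 6.63 in Allo 2, 5.33 in Allo 3 and 22.4 in Allo 4, and Syn 2 and Allo 1 had no peak there. It was therefore close to the bottom of the Syn lists that held it and higher in 3 Allo lists. These are positions in lists of unequal length, which do not show a change. With 2 libraries lacking the region, no rank was tested. Peaks covered 71.3% to 100% of the promoter window in the 5 libraries that had one. A Cxcl2 region 3640 bp before the gene at chr5:90899404-90901079 was present in all 7 libraries at list percentiles of 43.3 to 56.6. It ranked first at this gene in all libraries but Allo 3 and Allo 4, where chr5:90908671-90909324, beyond the gene and missing from Syn 3, was higher (54.3 and 53.8). Region counts at Cxcl1 were 4, 5 and 4 for Syn against 3, 5, 5 and 4 for Allo, and those at Cxcl2 were 4, 3 and 3 against 3, 4, 4 and 4 (exact permutation tests, two-sided, p = 1 and 0.486).

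Ccl25 encodes the ligand of CCR9, which directs lymphocytes to the small intestine. The gene lies at chr8:4325205-4360020 on the plus strand and had 11 regions. Its first start is in the top few percent of every library: the region at chr8:4324525-4325753 ranked 96.8, 98.0 and 98.1 in Syn and 97.3, 96.7, 94.6 and 97.1 in Allo on the shared percentile. Allo 1 and Allo 4 exceeded Syn 1, so the groups overlapped, and the difference was -1.25 with a standard error of 1.01 (limma with Benjamini-Hochberg adjustment, adjusted p = 0.540). The neighbouring gene Elavl1 lies next to this start, and the summit fell to Ccl25 in Syn 1, Allo 2 and Allo 3 and to Elavl1 in the other 4 libraries, so the signal belongs to a shared stretch. The region at the second start, chr8:4349372-4349745, was weaker, at list percentiles of 37.5, 55.9 and 53.3 in Syn and 50.8, 38.3 and 52.3 in Allo 2 to 4, and Allo 1 had no peak there.

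Beyond the Ccl25 gene, at chr8:4367843-4368982 with the summit 8624 bp past its end, the shared percentile was 50.1, 52.6 and 45.3 in Syn and 64.5, 63.3, 61.6 and 62.6 in Allo. Every Allo library was above every Syn library, but the difference of 13.7, with a standard error of 5.50, did not pass the test (limma with Benjamini-Hochberg adjustment, adjusted p = 0.180). The exact permutation test, two-sided and unadjusted, gave its smallest possible p of 0.0286, for a region named after its values were seen. Region counts at Ccl25 were 9, 10 and 10 for Syn against 8, 10, 10 and 11 for Allo (exact permutation test, two-sided, p = 1). The regions nearest to the limit of 50 kb were all at this gene or at Cxcl5. Just inside it were Ccl25 regions at 44558 bp, in all 7 libraries, and at 48586 bp, in 4, and a Cxcl5 region at 44820 bp in Allo 3. Just outside it were regions at 51296 and 52729 bp from Ccl25, each in all 7 libraries, and at 53958 bp, in 2.

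Ccl28 encodes a mucosal chemokine that draws plasma cells through CCR10. The gene lies at chr13:119623819-119654359 on the plus strand and had 7 regions, 4 of which were in all libraries. Its strongest region lies within the gene at chr13:119631551-119632346, 8150 bp past the start. It ranked 82.5, 82.3 and 78.8 in Syn and 87.3, 85.6, 91.1 and 89.3 in Allo on the shared percentile, so that every Allo library was above every Syn library. The means were 81.2 ± 2.07 (SD, n = 3) and 88.4 ± 2.39 (SD, n = 4), a difference of 7.16 with a standard error of 2.00 (limma with Benjamini-Hochberg adjustment, adjusted p = 0.0667). It passed the threshold without Allo 2 (8.06, adjusted p = 0.0327) and without Allo 1 and Allo 2 (9.04, adjusted p = 0.0248). In these settings calls higher over all shared regions rose from 667 to 1572 and 2462. The region did not pass without Syn 1, 2 or 3 (limma adjusted p = 0.14, 0.133 and 0.231) or without Allo 1, 3 or 4 (0.103, 0.163 and 0.147). Nor did it pass without Allo 3 and Allo 4 together (limma adjusted p = 0.302) or when regions were ranked by fold (0.189).

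A pair of other Ccl28 regions ranked lower in every Allo library than in any Syn library without passing the test. Over all shared regions, every Allo library was below every Syn library at 8.86% and above at 8.41%. At chr13:119619522-119620672, 3967 bp upstream of the start, Syn ranked 73.1, 72.1 and 77.3 and Allo 62.4, 68.9, 65.4 and 62.1, a difference of -9.51 with a standard error of 4.00 (limma with Benjamini-Hochberg adjustment, adjusted p = 0.202). At chr13:119626616-119627419, 3083 bp into the gene, Syn ranked 11.7, 12.5 and 24.4 and Allo 6.32, 8.83, 5.08 and 9.63, a difference of -8.75 with a standard error of 4.79 (adjusted p = 0.331 by limma). Regions of the same gene thus lay on both sides of zero. The start, chr13:119623598-119624000, ranked 40.3, 29.2 and 42.1 in Syn and 56.4, 47.2, 34.7 and 35.1 in Allo, with overlap and a difference of 6.15 with a standard error of 7.72 (adjusted p = 0.714 by limma). Region counts at Ccl28 were 4, 5 and 6 for Syn against 4, 5, 6 and 6 for Allo (exact permutation test, two-sided, p = 1).

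**Figure D4:**
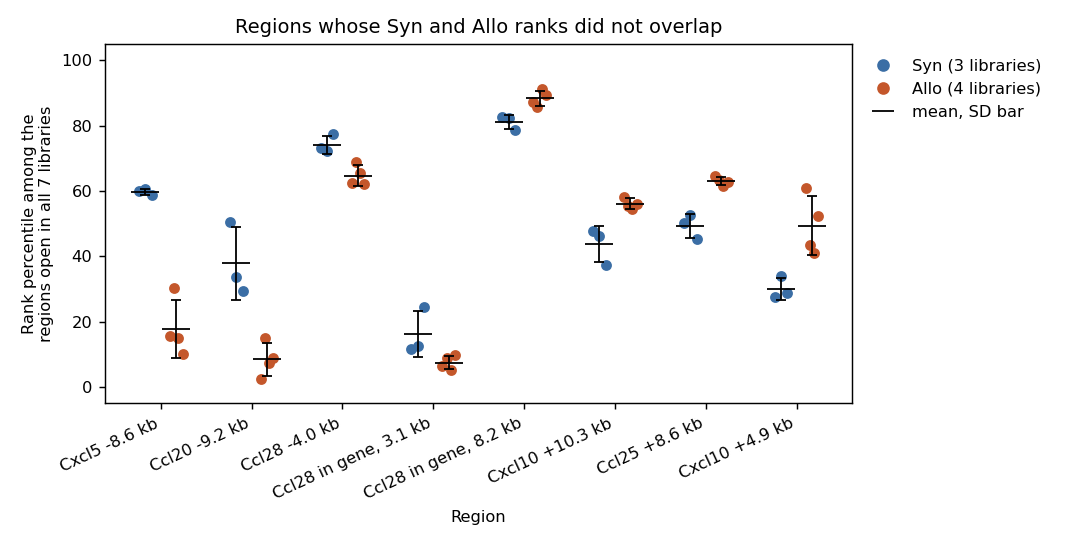
Shared percentile (vertical axis, 0 to 100) of each Syn (blue) and Allo (orange) library at the 8 regions whose groups did not overlap, 6 by the rule and 2 added at Cxcl10, with the mean and SD, each region labelled by gene and distance by genome coordinate. The gap is widest at Cxcl5, where Syn lies at 58.8 to 60.6 and Allo at 9.96 to 30.4, and narrow at the Ccl28 regions.

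Cxcl16 encodes a membrane-bound chemokine for CXCR6 that is also a scavenger receptor. Its only region, chr11:70458617-70460262, lies at a gene end that it shares with Zmynd15, and the summit fell in Cxcl16 only in Allo 2. It ranked 79.7, 78.9 and 69.1 in Syn and 70.3, 63.4, 77.3 and 76.7 in Allo on the shared percentile. The groups overlapped, and the difference was -3.98 with a standard error of 4.15 (limma with Benjamini-Hochberg adjustment, adjusted p = 0.648). Each library held exactly this 1 region at the gene (chr11:70454389-70459984).

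**Figure D5:**
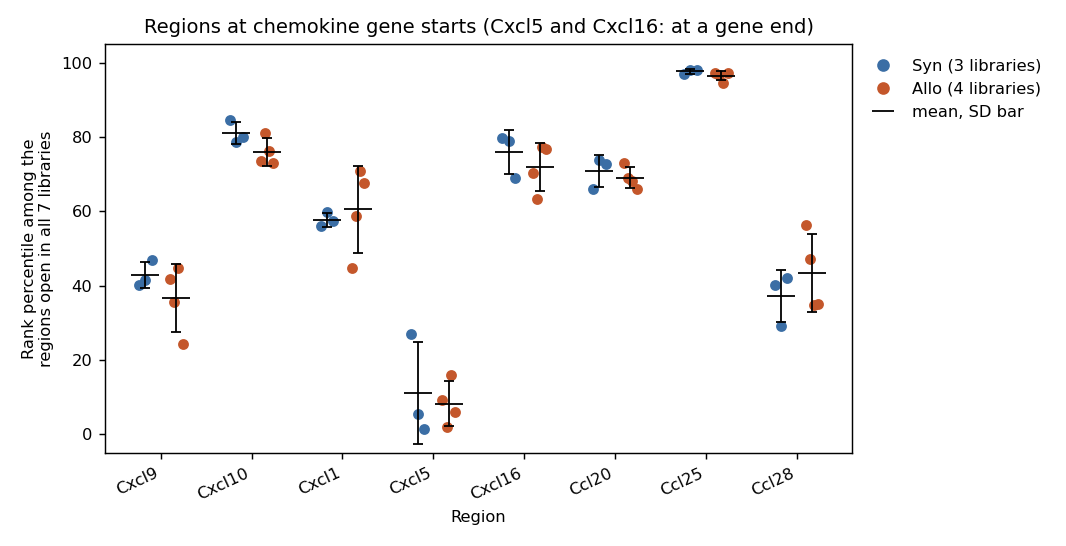
Shared percentile (vertical axis, 0 to 100) of each Syn (blue) and Allo (orange) library at the region of each gene's start, or of a gene end for Cxcl5 and Cxcl16, with the mean and SD. The groups overlap at all 8 genes shown, from the weak Cxcl5 region to Ccl25 near the top, and Cxcl2 is not shown because 2 libraries had no peak there.

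At the gene starts the order was the same in both groups at its ends, with Ccl25 highest and Cxcl5 lowest by mean among the 8 genes with a region in all libraries. For Ccl25 this is the region of its first start, shared with Elavl1, and the Cxcl16 region is shared with Zmynd15. Among neighbours in that order, the libraries overlapped within each group between Cxcl10 and Cxcl16 (means of 81.1 and 75.9 in Syn, 76.0 and 71.9 in Allo), between Cxcl16 and Ccl20 (75.9 and 70.9, 71.9 and 69.1) and between Cxcl9 and Ccl28 (42.9 and 37.2, 36.7 and 43.4), and the last pair changed places between groups. Ccl20 and Cxcl1 overlapped in Allo and were apart in Syn, at 66.0 to 73.8 against 56.1 to 59.8. Cxcl1 was also apart from Cxcl9 below it in Syn, at 40.3 to 46.8, and overlapped with its next lower neighbour Ccl28 in Allo. Region counts separated the groups at none of the 9 genes, against a background of 1.37% of genes with every Allo count below every Syn count and 2.14% above. The unadjusted p of limma was under 0.05 at 5 of the 29 shared chemokine regions (17.2%), a share below that of all shared regions (19.8%), and the adjusted p of the 27 that were not called ran from 0.0667 to 0.917.

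The rest of the chemokine system was read from lists given in full by gene families. Of 27 other chemokine genes in the gene table, 20 had a region. Of their 37 shared regions 0 were lower and 1 was higher in Allo, against 1.57% and 1.33% of all shared regions. This region, chr11:83534189-83535330 at Ccl5, which encodes a T cell attractant, rose from 43.8 ± 1.49 (SD, n = 3) to 67.2 ± 2.27 (SD, n = 4), a difference of 23.3 with a standard error of 5.45 (limma with Benjamini-Hochberg adjustment, adjusted p = 0.0370). The call was lost without any single library other than Allo 2 (adjusted p from 0.0805 to 0.131 by limma). It was also lost when regions were ranked by fold (16.9, limma adjusted p = 0.186). Cxcl15, which lies among the neutrophil attractants on chromosome 5, had a region in all 4 Allo libraries and no Syn library (chr5:90820609-90821118), and Ccl3 had a region in all 3 Syn libraries and no Allo library (chr11:83644536-83644892). These were the only regions of 1 group among 74, against 1.14% Allo-only and 1.01% Syn-only over all merged regions. Of 22 receptor genes, 18 had a region, none of their 22 shared regions was called, and Cxcr2 and Cxcr6 had no region in any library.

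Among 21 genes of the signalling known to induce chemokines, 20 had a region. Of their 98 shared regions 1 was lower and 0 were higher in Allo, against 1.57% and 1.33% of all shared regions. The lower region lies at Relb, an NF-kappaB subunit (chr7:19609646-19610229), and fell from 70.2 ± 6.76 (SD, n = 3) to 25 ± 16.2 (SD, n = 4), a difference of -45.2 with a standard error of 8.72 (limma with Benjamini-Hochberg adjustment, adjusted p = 0.0181). Its call was lost without any single Syn library (adjusted p from 0.0609 to 0.107 by limma). The call was also lost without Allo 3 and Allo 4 together (-34.0, limma adjusted p = 0.0537) and when regions were ranked by fold (-46.0, limma adjusted p = 0.0954). Of 166 regions at these genes, 4 were Allo-only, 3 of them at Irf1, a transcription factor of the interferon response, and 1 at Il17ra, while 1 at Nfkb1 was Syn-only. The background over all merged regions was 1.14% Allo-only and 1.01% Syn-only. Tnfrsf1b, a TNF receptor gene, showed 6 regions throughout Syn against 7, 8, 8 and 8 for Allo (exact permutation test, two-sided, p = 0.0571). Every Allo count was above every Syn count there, as at 2.14% of all genes with a region. In the marker lists, 1 of 42 shared regions at stem cell genes (Ascl2, difference 40.3, adjusted p = 0.0107 by limma) and 1 of 50 at epithelial genes (Vil1, 36.7, adjusted p = 0.0197) ranked higher in Allo, with median differences of -0.453 and 0.774 over the lists. Over all shared regions, 1.33% were called higher and 1.57% lower. Of 12 shared regions at leukocyte genes, 2 ranked lower, at Itgax and Adgre1 (-35.3 and -23.3, adjusted p = 0.0245 and 0.0301 by limma), while the median over the list was 1.78. All 4 calls were lost without Syn 1 and when regions were ranked by fold, where the Vil1 difference was 5.30 and that at Itgax -24.4. The part of these regions in the chemokine results was not tested.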

How the data were processed

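Per the submitters' processing notes, the build was mm10 and the tools were MACS2, MACS3, Bowtie2 and Trim Galore. Versions, roles and the peak threshold are not given in the sources used here. Peaks were called per library, and the authors deposited 1 list each, which gives every peak a score, a fold against the local background, −log10 values of p and q, and a summit position. These values are the authors' and served to order or filter peaks inside 1 list. Read pairs were of 150 nt, and depth is unknown because the lists hold no read counts. Background pileup was solved from the deposited fold and −log10 p, within 0.001, for a sample of peaks.

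Overlapping peaks (1 bp or more) on chromosomes 1 to 19 and X formed merged regions. Genes came from a RefSeq table of GRCm38.p6, the build mm10 is based on, and exons and introns were not used. Ranks over the 50324 regions in all 7 libraries were fitted with limma 3.58.1 (R 4.3.3, mean-variance trend) and Benjamini-Hochberg adjustment, a step tested on simulated data. Single counts were compared by exact permutation over 35 relabellings, with a smallest p of 0.0286. Python 3.11.15, numpy 2.4.6, pandas 2.3.3, scipy 1.17.1 and matplotlib 3.10.9 were used. By the naming rule all 9 genes are described, with their start regions, regions of 1 group only and best ranked regions, and of the lists genes with a group-specific region or separate counts. Other regions named singly, called and separated ones included, were chosen after their values were seen. The members and lists were chosen with earlier results of these data known. Alternatives changed the peak threshold, list length, region definition, reach, scale, ranking value, replicate block and left-out libraries.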

Additional observations from a re-analysis of the deposited data

Results flagged for a closer look

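In 6 of 41 sets of 4 Allo values at the chemokine genes, 1 library stood apart from the other 3 by Dixon's ratio. The sets were the ranks at 29 chemokine regions and at 4 added Cxcl10 regions, and the region counts at 8 genes. For continuous values chance gives about 1 in 20, which can be set only against the rank sets. It does not apply to the 3 region counts among the 6, where any difference from 3 tied values stands apart. Allo 2 ranked 53.0 on the shared percentile at chr8:4333847-4334329 in Ccl25. Allo 3 ranked 64.7 at chr5:90722613-90723162, assigned to Cxcl5. Allo 1 ranked 59.3 at chr5:92366252-92367149, upstream of Cxcl10. The number of regions was 2 at Cxcl9 in Allo 2, 3 at Cxcl2 in Allo 1 and 7 at Cxcl5 in Allo 3, where the other Allo libraries shared 1 value each, namely 1, 4 and 6. In Ccl25, Cxcl5 and Cxcl10 these ranks belong to regions that were not called.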

How the results depend on the processing

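The differences at the called Cxcl5 and Ccl20 regions stayed below 0 in every alternative that gave a value. They ran from -46.3 to -39.5 and from -33.6 to -23.0 points when 1 library was left out. With libraries left out, with the replicate block and on the logit scale the sign could not change. Every Allo library already ranked below every Syn library at both regions. The Ccl20 region was not in all 7 libraries with a −log10 q of at least 5. The number of chemokine regions called lower was 2, but 0 when ranked by fold or without Allo 3 and Allo 4, 1 with a −log10 q of at least 5, 1 with the replicate block, and 0 to 2 with 1 library left out. The number called higher was 0, but 1 without Allo 1 and Allo 2 and 0 to 1 with 1 library left out. Syn-only regions numbered 0, but 1 by nearest gene end (chosen after seeing the data), 1 without Allo 3 and Allo 4, and 0 to 1 with 1 library left out. Over all 50324 regions, calls lower and higher fell from 792 and 667 to 17 and 32 by fold and to 286 and 282 with the block, ran from 47 to 2128 and from 56 to 1572 with 1 library left out, were 194 and 241 without Allo 3 and Allo 4, and 2884 and 2462 without Allo 1 and Allo 2. The labels do not say whether the replicate numbers pair the libraries. Deviations of same-numbered libraries correlated at 0.0494, -0.0403 and 0.0539, and those of differently numbered ones at -0.0638 to 0.0476. These values cannot decide whether the numbers are pairs. With the block the Cxcl5 difference was -39.5 (limma adjusted p = 0.0399) and the Ccl20 difference -29.5 (adjusted p = 0.0735). Small differences that were not called changed sign. For region counts, Allo minus Syn, these were at Cxcl5 -0.167 (−log10 q of at least 5), -0.667 (50% cover) and -0.5 (10 kb reach), at Cxcl2 -0.167 (shortest list length), at Ccl25 -0.167 (−log10 q of at least 5), -0.0833 (shortest list length), -0.333 (10 kb reach), -0.333 (replicate block) and -0.667 (without Allo 3 and Allo 4), at Ccl28 -0.5 (without Allo 3 and Allo 4), and at Cxcl1 0.167 (500 bp windows, without Allo 3 and Allo 4, and without Allo 1 and Allo 2). With 1 library left out they ran from -0.333 to 0.667 at Ccl25, -0.25 to 0.75 at Ccl28 and -0.333 to 0.333 at Cxcl1. For ranks, the Cxcl5 end gave 0.0771 on the logit scale (log2 units) and 2.26 by fold, and -7.85 to 4.89 with 1 library left out. The Cxcl1 start gave -1.01 by fold, -5.94 without Allo 3 and Allo 4, and -0.653 to 7.98 with 1 library left out. The Ccl20 start gave 1.59 by fold and 0.183 without Allo 3 and Allo 4, the Cxcl10 region 10329 bp upstream -2.16 by fold, and, without Allo 1 and Allo 2, the Ccl28 start -2.29 and Cxcl16 1.08. The cause of these changes was not tested. Depth is unknown, so absence from a list does not show that a region was closed.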
